A study of Homo sapiens with 34 samples.

Results

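mRNA abundance was compared between a CCND1 knockdown line and a CCND1 overexpression line of hTERT-RPE1 cells, both inducible by doxycycline, early in a chase. It took the libraries of 0, 10, 20 and 45 min of chase, chosen by line and time in the sample titles, which were 12 of the 34 libraries of the series, 6 per line. hTERT-RPE1 is an immortalised human retinal pigment epithelial line. According to the methods, doxycycline at 0.5 µg/mL turns on, in both lines, an shRNA that targets the CCND1 3′ UTR, and the overexpression line in addition induces a FLAG-tagged CCND1 that the shRNA spares. Cells of the knockdown line are called large and those of the overexpression line small in the study. By the methods, doxycycline was present throughout, and labelling began on day 4 of induction in both lines. All 12 cultures had taken up 10 µM 4-thiouridine (s4U) over 24 h, the medium being renewed each 3 h, and were then moved to 1 mM uridine. The libraries were 3′ end libraries of bulk RNA. Knockdown course 1 gave libraries at 0 and 45 min and overexpression course 1 at 0 and 20 min, while course 2 of either line gave all 4 times. A course is the set of libraries that share a line and a replicate number. The labels do not say whether courses came from separate cultures, so p-values of the line difference measure only the spread between courses, which may be technical, and those of the change over 45 min the spread of libraries within courses. Values of course 2 alone at matched times rest on 1 course a line, with its 4 chase times taken as replicates, so their p-values leave out the spread between courses.

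Cyclin D1, the product of CCND1, activates CDK4 and CDK6, which phosphorylate the retinoblastoma protein and so release E2F transcription factors. E2F factors switch on genes of DNA replication at the entry into S phase, and the genes of mitosis follow later in the cycle under B-MYB and FOXM1. Abundance is given as counts in 3′ UTRs scaled to a common library total (CPM), scaled between libraries by TMM, and differences as log2 of knockdown over overexpression. As a share of a library, CPM carries no information on total RNA per cell, and in bulk RNA a smaller share of cells in a cell cycle phase and less of a transcript in each cell cannot be told apart.

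Depth was 23223773 to 44480703 reads in 3′ UTRs per library, and between 10797 and 11059 genes reached 1 CPM. Libraries of the same line correlated at r of 0.938 to 0.969 across 11653 genes and libraries of different lines at r of 0.895 to 0.942. The first principal component held 33.1% of the variance and separated the lines. The second (11.8%) and the third (9.39%) were set by single libraries that stood apart, overexpression course 1 at 20 min and knockdown course 2 at 10 min. Markers of retinal pigment epithelium were in part absent: RPE65, RLBP1, BEST1, TYR and TYRP1 reached at most 1.06 CPM in any library, while MITF, KRT8 and KRT18 were at 33.9 CPM or more in every library. Of the other cell types, EPCAM, CDH1, PTPRC, CD3E, CD14, LYZ, HBB, PECAM1, CDH5 and VWF stayed below 1 CPM in all 12 libraries.

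Reads in the 3′ UTR of CCND1 (hg38 chromosome 11, 69651283 to 69654474, plus strand) had a higher CPM in the knockdown line. The 6 knockdown libraries ran between 151 and 197 CPM with a median of 168, and the 6 overexpression libraries between 47.0 and 66.2 CPM with a median of 54.8, so the lines did not overlap. The log2 difference was 1.61 (SE 0.15, adjusted p of 1.6e-10 by edgeR) and was 1.58 between the courses numbered 1 and 1.64 between those numbered 2. These reads come from the transcript that the shRNA targets in both lines. The sources used here do not state whether the transgene carries any of this UTR, so these reads check neither label, and directions below follow the labels. According to the methods, both CCND1 manipulations were authenticated separately, on Western blots and by mass spectrometry.

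The abundance of 1526 of 12572 genes was higher in the knockdown line, 12.1% of those tested, and that of 1470 genes, or 11.7%, was lower (edgeR's quasi-likelihood test on 2 courses against 2, Benjamini-Hochberg adjusted p under 0.05). The median difference over all genes was 0.01. Of the genes called, 522 were higher and 421 lower by a log2 of at least 1. In 1182 genes (9.4%) every knockdown library lay above every overexpression library, and in 1120 (8.91%) every one lay below. Without both libraries that stood apart the counts were 1400 and 1406. At 0 min alone, with 1 library a course, 946 genes were higher and 924 lower, of which 876 and 864 were also called over the first 45 min. In course 2 alone at matched times 2095 genes were higher and 2158 lower, more than over the courses. List counts for course 2 below are to be set beside these totals.

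Of the 10 genes with the largest positive differences, CPA4, IGFBP5, LAMA4 and SFRP1 encode secreted proteins and CLSTN2 and SELPLG cell surface proteins. CPA4, a secreted metallocarboxypeptidase (chromosome 7, 130322677 to 130324180), was at 611 to 818 CPM with a median of 674 in the knockdown libraries and at 30.7 to 49.2 CPM with a median of 39.0 in the overexpression libraries. Its course means were 719 ± 93.1 and 39.7 ± 2.73 CPM (SD, n = 2 courses in each line), and the log2 difference was 4.18 (SE 0.16, adjusted p of 2.2e-21 by edgeR). NDRG4, a cytoplasmic member of the N-myc downstream-regulated family, had the largest difference in the group, 4.58 (SE 0.30), at 17.9 to 29.1 CPM in the knockdown and 0.132 to 1.64 CPM in the overexpression libraries. IGFBP5, an IGF-binding protein of the matrix, was at 159 to 206 CPM with a median of 193 in the knockdown and at 12.7 to 19.5 CPM with a median of 15.0 in the overexpression libraries (log2 of 3.70, SE 0.17).

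The laminin chain gene LAMA4 differed by a log2 of 3.16 (SE 0.20), with 38.2 to 43.8 CPM in the knockdown and 2.79 to 5.76 CPM in the overexpression libraries. SFRP1, a secreted inhibitor of WNT signalling, was at 321 to 467 CPM in the knockdown and 44.0 to 71.9 CPM in the overexpression libraries (log2 of 2.81), and MEST, an imprinted gene, at 122 to 174 CPM in the knockdown and 19.6 to 23.9 CPM in the overexpression libraries (log2 of 2.70). The other members of the group were at lower levels: CLSTN2, a calsyntenin (log2 of 3.11), TMEM150A, a membrane protein (3.05), SELPLG, the ligand of P-selectin (3.02), and PALMD, a palmdelphin (3.01). Their highest overexpression libraries reached 3.56 CPM and their lowest knockdown library 9.45 CPM.

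**Figure D1:**
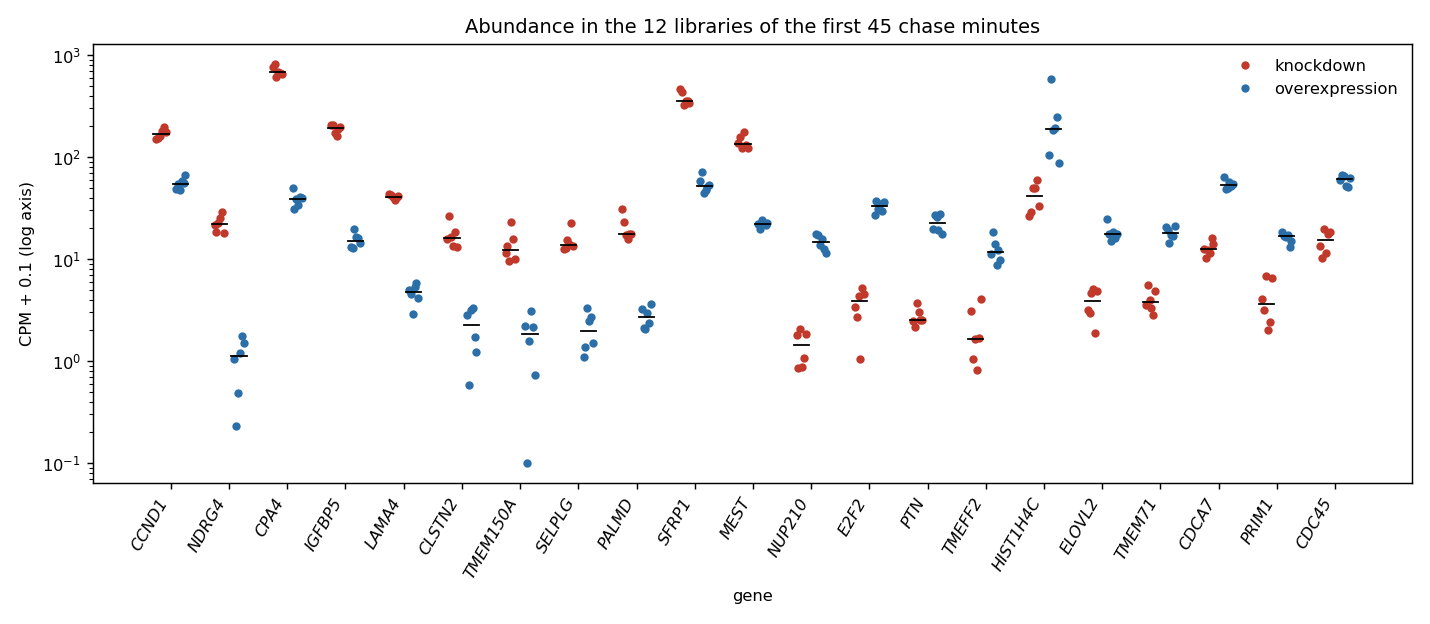
Abundance of CCND1, of the 10 genes with the largest positive and of the 10 with the largest negative line difference, as CPM + 0.1 on a log axis, in the 6 knockdown libraries (red, left of each gene) and the 6 overexpression libraries (blue, right), with black lines at the medians. The lines do not overlap in any of these genes, as the rule for choosing the 20 required, and the overexpression library of HIST1H4C at 582 CPM lies above the other 5.

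Among the largest negative differences, 4 of 10 genes act in S phase or drive it. E2F2, an activating E2F factor (chromosome 1, 23506430 to 23509879, minus strand), was at 0.959 to 5.12 CPM with a median of 3.74 in the knockdown and at 26.6 to 36.9 CPM with a median of 32.7 in the overexpression libraries, a log2 difference of -3.27 (SE 0.22, adjusted p of 1.1e-13 by edgeR). CDC45, a part of the replicative helicase, was at 10.1 to 19.5 CPM in the knockdown and 50.7 to 66.1 CPM in the overexpression libraries (log2 of -2.07). PRIM1, the catalytic subunit of primase, was at 1.92 to 6.66 CPM in the knockdown and 12.9 to 18.3 CPM in the overexpression libraries (-2.08), and HIST1H4C, a histone H4 gene, at 26.2 to 59.8 CPM in the knockdown and 86.4 to 582 CPM in the overexpression libraries (-2.64). Without overexpression course 1 at 20 min, the library with 582 CPM, the difference of HIST1H4C was -1.91.

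The other 6 were of mixed roles. NUP210, a membrane protein of the nuclear pore, had the lowest value of the group, -3.57 (SE 0.31), at 0.758 to 1.96 CPM in the knockdown and 11.3 to 17.6 CPM in the overexpression libraries. PTN, the growth factor pleiotrophin, differed by -3.12, with a median of 2.42 CPM over the knockdown libraries, against 22.6 CPM over the overexpression libraries. TMEFF2, a transmembrane protein with EGF-like and follistatin-like domains, differed by -2.71, ELOVL2, an elongase of very long chain fatty acids, by -2.46, and TMEM71, a membrane protein, by -2.20. CDCA7, a partner of the chromatin remodeller HELLS, was at 10.2 to 16.0 CPM in the knockdown and 48.5 to 64.3 CPM in the overexpression libraries (-2.18).

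Of 23 genes of replication licensing and the helicase, 19 were lower and none higher (median log2 of -1.37), against 11.7% lower and 12.1% higher of all genes tested. The kinase CDC7, which fires origins, was at 2.90 to 6.84 CPM in the knockdown and 16.4 to 22.2 CPM in the overexpression libraries (log2 of -1.90), and MCM10, a scaffold of the helicase, at 25.4 to 32.2 CPM in the knockdown and 102 to 118 CPM in the overexpression libraries (-1.91). MCM2 to MCM7, the 6 subunits of the MCM ring, all fell, by log2 of -1.26 for MCM4 to -1.66 for MCM7, whereas ORC2, ORC3, ORC4 and ORC5 of the origin recognition complex did not pass the test.

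At the replication fork and in nucleotide supply 28 of 32 genes were lower and none higher (median -1.03). PCNA, the sliding clamp, was at 105 to 131 CPM with a median of 117 in the knockdown and at 327 to 506 CPM with a median of 359 in the overexpression libraries (log2 of -1.76, SE 0.15). TYMS, thymidylate synthase, was at 94.9 to 148 CPM in the knockdown and 307 to 498 CPM in the overexpression libraries (-1.70). The ribonucleotide reductase subunits RRM2 and RRM1 differed by -1.50 and -0.83. All 12 genes of chromatin replication and DNA methylation were lower (median -1.36). Among them were HMGB2, a chromatin protein (-1.80), CHAF1B, a subunit of the histone chaperone CAF-1 (-1.61), and UHRF1, which guides DNMT1 (-1.58), though 69% of the UHRF1 reads were multimapped.

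Of 14 E2F factors, their partners and the B-MYB complex, 10 were lower and none higher (median -0.70). E2F8, a repressor, was at 0.301 to 1.02 CPM in the knockdown and 3.17 to 10.9 CPM in the overexpression libraries (-3.26), MYBL2, which encodes B-MYB, at 60.8 to 72.8 CPM in the knockdown and 104 to 342 CPM in the overexpression libraries (-1.93), and E2F1 differed by -1.69. E2F5, E2F6, E2F7 and TFDP2 did not pass the test. The list of G1 cyclins, CDKs and the RB family was split, with 3 of 17 genes higher and 6 lower (median -0.04). CCND1, the cyclin gene CCNE1 (0.84) and CDK6 (0.80) were higher. The CDK4 and CDK6 inhibitors CDKN2D (-1.67) and CDKN2C (-1.55), the RB-like gene RBL1 (-1.39), CCNE2 (-1.34), RB1 (-0.59) and CDK4 (-0.38) were lower. CDKN1A, the p21 gene, did not pass the test.

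In mitosis 41 of 42 genes were lower and none higher (median -1.06), and in 38 of the 42 every knockdown library lay below every overexpression library, against 8.91% of all genes. SPC25, a kinetochore subunit, was at 12.6 to 19.5 CPM with a median of 16.3 in the knockdown and at 41.2 to 63.3 CPM with a median of 55.8 in the overexpression libraries (-1.82). NCAPH, a condensin subunit (-1.69), and CENPA, the centromeric histone (-1.56), followed, and the mitotic kinase CDK1 (-1.34) and its cyclins CCNA2 (-1.47) and CCNB1 (-0.98) were lower as well. Of 30 genes of DNA repair 24 were lower and none higher (median -1.17), led by RAD54L and XRCC3 of homologous recombination (-1.93 and -1.83) and by the helicase gene BLM (-1.82). ATM and ATR, the kinases of the damage response, did not pass the test.

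In the alternatives run, the lists of licensing, fork, chromatin, E2F factors, mitosis and repair kept a negative median and had no member called higher. The median ran from -1.43 to -1.28 for licensing, from -1.15 to -0.99 for the fork and from -1.34 to -1.05 for repair, and 35 to 42 mitosis genes were called lower. The lists were drawn up with earlier results of these data known.

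Promoters of the lower genes are shown because E2F factors and the mitotic complexes are known to bind short motifs there. RefSeq promoters of GRCh38.p14, from 250 bases before to 50 after the start, were matched for 10242 of 12572 genes tested and searched on both strands. Motifs were TTTCCCGC and TTTGGCGC for E2F, TTTGAA for the cell cycle homology region (CHR) and CCAAT for the CCAAT box, which do not contain one another. Capitals mark matches below, and a match is a description of the sequence, not a bound site.
E2F2 promoter (chr1:23531248-23531295, minus strand): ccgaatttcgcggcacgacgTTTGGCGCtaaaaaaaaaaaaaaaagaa
CDCA7 promoter (chr2:173354787-173354834, plus strand): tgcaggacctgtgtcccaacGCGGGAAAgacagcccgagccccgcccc
PCNA promoter (chr20:5126654-5126701, minus strand): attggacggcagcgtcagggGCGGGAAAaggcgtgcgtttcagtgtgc
TYMS promoter (chr18:657594-657641, plus strand): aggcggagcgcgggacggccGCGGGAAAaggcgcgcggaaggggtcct
CENPA promoter, CHR (chr2:26786018-26786063, plus strand): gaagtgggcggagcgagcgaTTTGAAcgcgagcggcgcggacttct

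The E2F match began at position -42 from the start in E2F2, -65 in CDCA7, -59 in PCNA and -39 in TYMS, and the CHR match of CENPA at -18. An E2F match stood in 3.62% of the promoters of all genes tested and in 2.31% of the 27305 promoters in the table. It stood in 104 of 1218 promoters of genes lower in the knockdown line (8.54%) and in 24 of 1222 of those higher (1.96%). By list, 9 of 20 licensing promoters, 9 of 28 fork promoters and 2 of 37 mitosis promoters had one. The CHR stood in 26 of 37 mitosis promoters (70.3%), in 1 of 20 licensing promoters, in 1 of 28 fork promoters and in 9.91% of those of all genes tested (15.4% of all promoters in the table). A CCAAT box stood in 27 of 37 mitosis promoters (73.0%) against 36.9% of all genes tested and 35.7% of all promoters. It was not particular to mitosis, as 12 of 20 licensing and 15 of 28 fork promoters had one. So did 18 of 20 promoters of endoplasmic reticulum chaperones, but only 7 of 29 lysosomal promoters. CENPA also had an E2F match, at -232. No E2F match of these letters stood in the windows of CDC45, PRIM1, MYBL2, MCM10, CDC7, SPC25, NCAPH, RAD54L, XRCC3 and BLM. The same held for NUP210, PTN, TMEFF2 and ELOVL2.

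**Figure D2:**
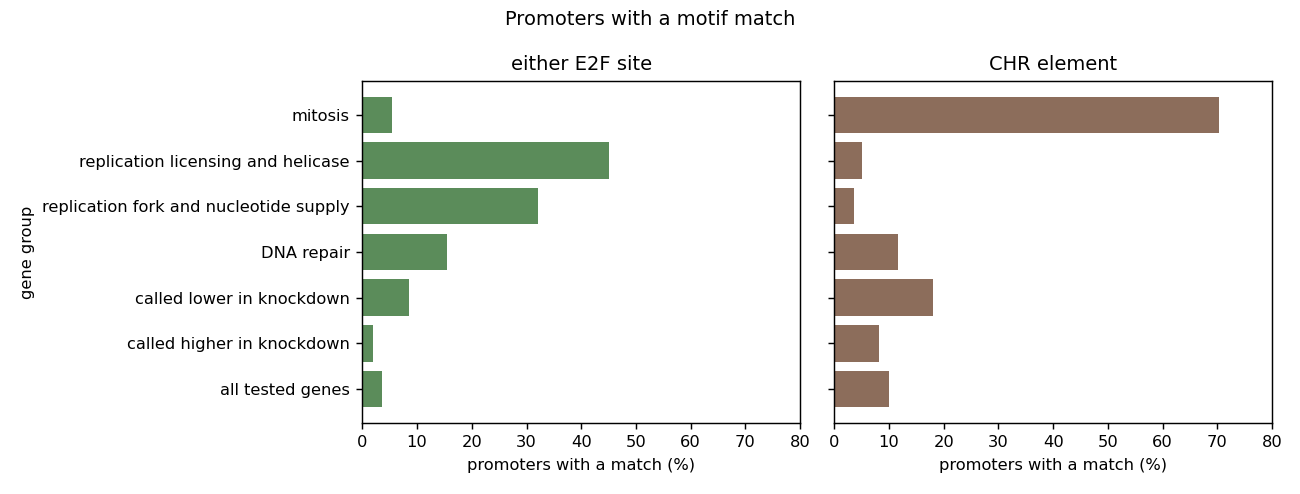
Percent of promoters (250 bases before to 50 after the start) with either E2F motif (left) and with the CHR (right) in 4 gene lists, in the genes called lower and higher in the knockdown line and in all genes tested. The bar of mitosis reaches 70.3% for the CHR and that of licensing 45% for E2F, against 9.91% and 3.62% of all genes tested.

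Of 37 measured genes of matrix glycoproteins and proteoglycans, 19 were higher and 4 lower (median 0.69). FN1, fibronectin, was among the most abundant, at 4427 to 5335 CPM in the knockdown and 1020.0 to 1729 CPM in the overexpression libraries (log2 of 1.75, SE 0.13, adjusted p of 1.7e-12 by edgeR). THBS1, thrombospondin, was at 965 to 1427 CPM in the knockdown and 305 to 354 CPM in the overexpression libraries (1.88). NID1, the basement membrane linker nidogen, was 1 of the 4 lower (-1.15), with LTBP4, TNC and CYR61. Of 27 collagens and collagen-modifying enzymes 11 were higher and none lower (median 0.54). LOX and LOXL1, which crosslink collagen, differed by 1.40 and 1.15, and COL4A1, of the basement membrane, by 1.12, while COL1A1 and COL3A1 did not pass the test.

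Of 26 matrix proteases and their inhibitors 13 were higher and none lower (median 0.83). Besides CPA4, the group held SERPINB2, an inhibitor of plasminogen activators, at 20.5 to 31.8 CPM in the knockdown and 4.24 to 10.4 CPM in the overexpression libraries (2.23), and ADAMTS12, a secreted metalloprotease, at 53.5 to 67.3 CPM in the knockdown and 10.6 to 17.1 CPM in the overexpression libraries (2.19). Of 15 integrins 10 were higher and 1, ITGA1, lower (median 0.58). ITGA11, a collagen receptor chain, was at 97.2 to 119.7 CPM in the knockdown and 30.0 to 46.1 CPM in the overexpression libraries (1.58). ITGB8 (1.24), at under 5 CPM in every library, lost its call in 18 of 28 alternatives. Of 14 IGF-binding proteins and genes of insulin signalling 9 were higher and none lower (median 0.75). IGFBP3, the main IGF carrier in serum, was at 689 to 1028 CPM in the knockdown and 205 to 324 CPM in the overexpression libraries (1.74), and PAPPA, a protease that cleaves IGF-binding proteins, at 47.8 to 84.6 CPM in the knockdown and 15.8 to 24.5 CPM in the overexpression libraries (1.76).

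Of 50 lysosomal genes 25 were higher and 2, GUSB among them, lower (median 0.55), with 17 higher and 1 lower at 0 min alone and 14 higher in the alternative with the fewest, without overexpression course 1 at 0 min. CTSK, the protease cathepsin K, was at 37.0 to 55.4 CPM in the knockdown and 12.4 to 21.8 CPM in the overexpression libraries (1.63), and SMPD1, acid sphingomyelinase, at 47.4 to 58.4 CPM in the knockdown and 20.8 to 25.3 CPM in the overexpression libraries (1.18). SGSH, a heparan sulfatase, differed by 1.57 at under 8 CPM in every library and was not called at 0 min alone. The CLEAR element, TCACGTGA, a palindrome that TFEB is known to bind and that holds the E-box CACGTG, stood in 6 of 29 lysosomal promoters (20.7%), against 1.94% of all genes tested and 1.04% of all promoters. Of those 6 genes, GNPTG (0.50) and ATP6V0D1 (0.77) were called higher, and LAMP1, CTSA, GAA and GALNS were not called.
GNPTG promoter (chr16:1351898-1351961, plus strand): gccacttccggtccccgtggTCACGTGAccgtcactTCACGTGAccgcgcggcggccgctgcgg
ATP6V0D1 promoter (chr16:67481190-67481237, minus strand): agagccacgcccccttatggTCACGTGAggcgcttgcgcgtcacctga

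Of 9 measured epithelial genes 5 were higher and none lower, namely the keratins KRT7 (1.26), KRT8 (0.90) and KRT18 (0.83) and the desmosomal JUP (1.21) and DSP (0.91). Of 11 mesenchymal genes SNAI2 (1.08), SNAI1 (0.91) and THY1 (0.81) were higher, and VIM and CDH2 did not pass the test. SNAI1 was not called at 0 min alone. MITF, a melanocyte and pigment epithelium factor, was at 66.4 to 108 CPM in the knockdown and 33.9 to 46.3 CPM in the overexpression libraries (1.25), while the eye field factor PAX6 was at 51.4 to 65.4 CPM in the knockdown and 98.0 to 117 CPM in the overexpression libraries (-0.85). These were the 2 genes called among 6 measured of pigment epithelium. Of 29 actin cytoskeleton genes 11 were higher and 1 lower (median 0.27), among them the myosin light chain MYL9 (0.87).

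**Figure D3:**
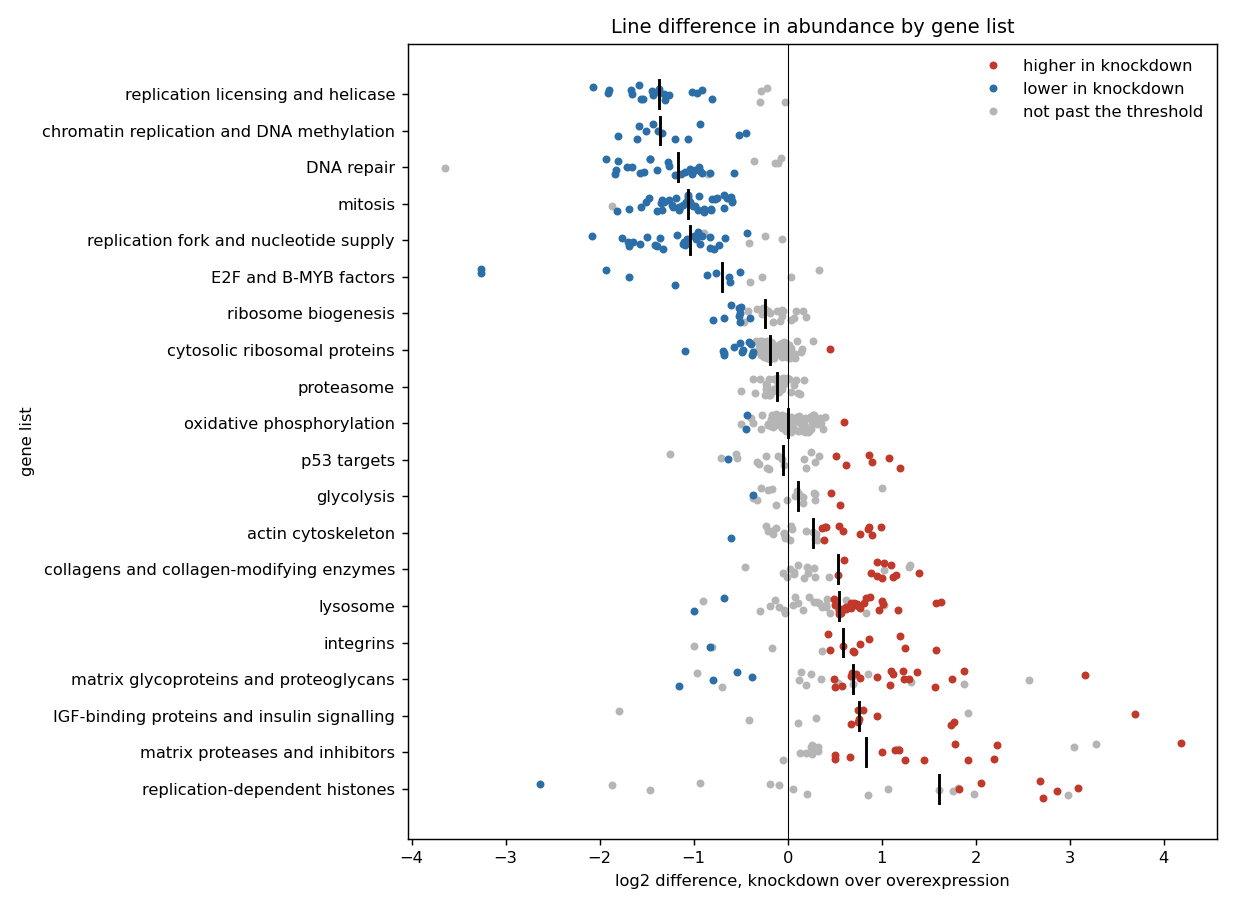
Log2 difference in abundance, knockdown over overexpression, for each measured member of 20 gene lists, in red where it was called higher in the knockdown line, in blue where lower and in grey where it did not pass the test, with black lines at the list medians. Medians run from -1.37 in replication licensing to 0.83 in matrix proteases and 1.61 in histones.

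The next lists are to be set beside the 12.1% higher and 11.7% lower of all genes tested. Among secreted cytokines 5 of 19 were higher and 2 lower, the share lower being near that of all genes. LIF (1.96), a cytokine of the IL-6 family, was at 24.3 to 47.0 CPM in the knockdown and 4.48 to 13.2 CPM in the overexpression libraries. IL1B differed by 1.65, and CSF2 by 3.07 with at most 2.14 CPM in any library. In the TGF-beta and BMP response 3 of 23 were higher, with the ligands TGFB2 (1.20) and INHBA (1.18) among them, and 5 lower, led by the BMP antagonist NOG (-1.24), and the share higher was near the 12.1% of all genes tested. Of 19 growth factors and receptors 4 were higher and 3 lower. FGF2 was at 360.1 to 515 CPM in the knockdown and 150.3 to 209.5 CPM in the overexpression libraries (1.36), and PDGFC differed by 0.96. Of 24 p53 targets 6 were higher, led by TP53INP1 (1.20) and ZMAT3 (1.07), and 1, BBC3, lower.

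Stress and metabolic lists were mixed, and their counts too are to be set beside 12.1% higher and 11.7% lower of all genes tested. Of 24 ATF4 targets 5 were higher, led by NUPR1 (1.14), a stress-induced chromatin protein, and 6 lower, among them PSAT1 (-1.12) and PHGDH (-0.98), which make serine. Of 20 NRF2 targets 4 were higher and 6 lower. The heme oxygenase gene HMOX1 differed by 1.05, the steroid-reducing enzyme gene AKR1C3 by 1.81 at under 7 CPM, and PIR, a pirin, by -1.06. In the interferon list 5 of 35 were higher and 4 lower, shares near the 12.1% and 11.7% of all genes tested, and 10 and 4 in course 2 alone. Over the course sums IFI44L was at 5.74 to 8.26 CPM in the knockdown and 0.0441 to 2.08 CPM in the overexpression libraries (2.84), IFIT3 differed by 0.94 and ISG15 by 0.88. The call of ISG15 was lost in 13 of 28 alternatives. Of 24 genes of sterol synthesis 6 were higher and 1 lower, with the synthesis enzymes DHCR7 (0.89) and LSS (0.74) and the sterol carrier STARD4 (0.67). Of 21 chaperones of the endoplasmic reticulum 5 were higher and none lower, led by DNAJB9 (0.74), HERPUD1 (0.59) and HSPA5 (0.49).

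Of 84 genes of oxidative phosphorylation 1 was higher, NDUFV3 (0.59), and 2 were lower, NDUFS3 (-0.44) and COX8A (-0.43), with a median of 0.01. At matched times in course 2 alone, 29 of them were called higher and 1 lower, where 2095 and 2158 of all genes were called. None of 35 proteasome genes was called by edgeR over the courses, with 3 at an unadjusted p under 0.05 and 1 called by voom, while 2 were called higher and 6 lower in course 2 alone. Of 20 glycolysis genes 2 were higher, PFKM (0.55) and SLC16A3 (0.46), and 1 lower, PKM (-0.37). These shares were below the 12.1% and 11.7% of all genes tested. In glycolysis none was called at 0 min alone, and 7 were higher and 4 lower in course 2. PKM, highest at 3140 CPM in overexpression course 1 at 20 min, was -0.08 in course 2 (adjusted p of 0.24) and lost its call in 12 of 28 alternatives, among them those without that library. SLC16A3 lost its call in 8 of 28 and NDUFS3 in 9 of 28. Of 81 cytosolic ribosomal protein genes 12 were lower and 1 higher (median -0.19), against 11.7% lower and 12.1% higher of all genes tested. At 0 min alone 1 was lower and none higher, without both libraries that stood apart 8 and 2, and in course 2 alone 23 and 10 with a median of -0.017, while 32 were lower without knockdown replicate 2. RPL39L, a paralogue of RPL39, differed by -1.09, and RPS27, with 99% of its reads multimapped, by -0.68. Of 29 genes of ribosome biogenesis 9 were lower and none higher (median -0.24), led by FBL, the rRNA methylase fibrillarin (-0.79), LYAR (-0.68) and RRN3 (-0.61).

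Of 21 measured replication-dependent histone genes 6 were higher and HIST1H4C was lower. The genes HIST1H3E (log2 of 3.08), HIST1H2BJ (2.87) and HIST2H2BE (2.72) were at 0.309 to 7.61 CPM in the knockdown libraries and reached at most 1.54 CPM in the overexpression libraries. The list had a median of 1.61, which turned to -0.081 when only genes with at least 1 CPM in every library were kept. Transcripts of these genes end mostly without a poly(A) tail, so that libraries primed on poly(A) hold only a part of them.

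Within the first 45 min itself, few genes moved. With each course as a block, 10 of 11653 genes rose over 45 min and none fell (0.0858% called, edgeR's quasi-likelihood test). At an unadjusted p under 0.05 there were 393 genes, and DESeq2 called 16 that rose and 1 that fell. Of the 10, 7 were among 42 immediate early genes, which cells transcribe within minutes of a stimulus. EGR1, a zinc finger transcription factor, rose by a log2 of 6.05 per 45 min (SE 0.35, adjusted p of 2.3e-10). It was at most 3.4 CPM in the 2 knockdown courses and at 8.91 and 6.49 CPM in the overexpression courses at 0 min, and at 414 and 384 CPM in the knockdown courses and 228 CPM in overexpression course 2 at 45 min. Its promoter is shown because it holds 2 CArG boxes, the motif of serum response factor, which stood in 1.12% of the promoters of all genes tested and 1.29% of all promoters. Capitals mark the boxes.
EGR1 promoter (chr5:138465354-138465425, plus strand): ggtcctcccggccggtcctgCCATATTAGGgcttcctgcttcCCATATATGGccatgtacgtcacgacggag

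FOS and FOSB, subunits of AP-1, rose by 5.95 and 3.76 per 45 min. They averaged under 10 CPM and were named after their values were seen, FOSB also under the list rule. FOS was at 38.5 and 34.1 CPM in the knockdown courses and 30.6 CPM in overexpression course 2 at 45 min, and below 5 CPM in the other 9 libraries. No CArG box stood in the windows of FOS and FOSB. The AP-1 subunit JUNB (1.18), the phosphatases DUSP1 (1.18) and DUSP6 (1.12) and IER2 (1.22), with 63% of its reads multimapped, rose less. So did the vasoconstrictor EDN1 (1.02), the EGF receptor ligand HBEGF (0.86) and the BMP target ID1 (0.79). The windows of JUNB, DUSP1, DUSP6, IER2, EDN1, HBEGF and ID1 held no CArG box either. Of the genes that rose, only EGR1 had one within its window of 250 bases before to 50 after the start. Sequence outside the windows was not searched.

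**Figure D4:**
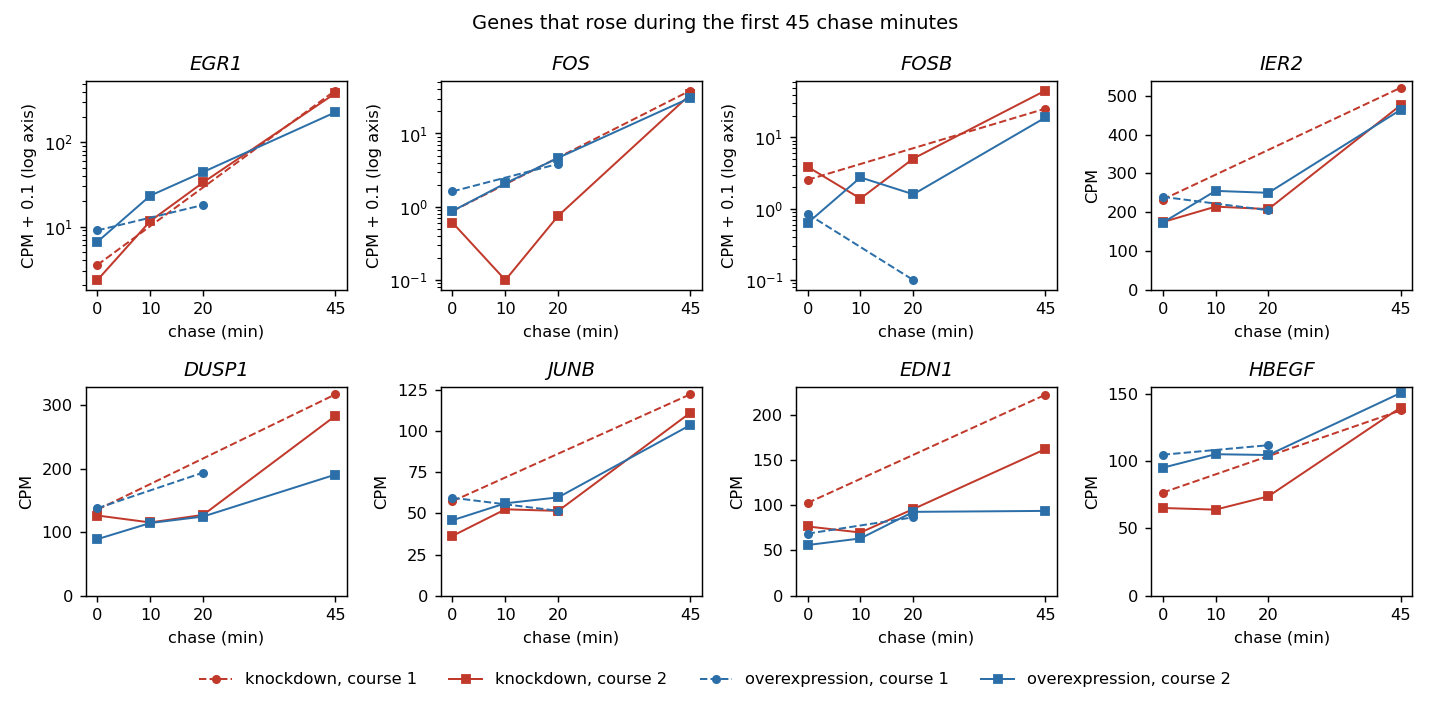
Abundance of 8 genes that rose over the first 45 min in knockdown course 1 (red, dashed) and 2 (red, solid) and overexpression course 1 (blue, dashed) and 2 (blue, solid), as CPM + 0.1 on a log axis for EGR1, FOS and FOSB and as CPM from 0 for the rest. EGR1 is between 2.21 and 8.91 CPM at 0 min in the 4 courses and between 228 and 414 CPM at 45 min in the 3 courses sampled then.

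No gene was called for a difference between the lines in its change over 45 min (358 at an unadjusted p under 0.05, edgeR). For EGR1 the difference of the changes was 2.56 per 45 min (SE 0.46, adjusted p of 0.19), and DESeq2 called no gene either. The times sampled differed between the courses, however, and this bears on the line difference of the same genes. Over the course sums EGR1 was called higher in the knockdown line (log2 of 1.87, adjusted p of 8.8e-05), but at 0 min alone the value was -1.46 (adjusted p of 0.055) and in course 2 at matched times -0.43 (adjusted p of 0.11). Of 43 immediate early genes 12 were called higher and 5 lower over the course sums, 4 and 4 at 0 min alone, and 7 and 12 in course 2 at matched times. The list median was 0.16 over the course sums, -0.06 at 0 min and -0.15 in course 2. The transcription factor KLF4, at under 4 CPM in every library, had a log2 of -2.86 over the course sums (adjusted p of 0.003), -2.12 at 0 min (adjusted p of 0.11, not called) and -3.27 in course 2 (adjusted p of 0.0092).

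The cell cycle and matrix lists gave like counts in the 3 forms. At 0 min alone 40 of 42 mitosis genes, 19 of 23 licensing genes and 26 of 32 fork genes were lower, and in course 2 at matched times 41, 19 and 30. For matrix glycoproteins 15 were higher and 4 lower at 0 min and 20 and 4 in course 2.

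The line difference of the first 45 min was then set against that after 1440 min of chase, measured in 4 further libraries of the same courses. For 41 of 12506 genes, or 0.328%, the difference itself changed (edgeR, interaction of line and time with each course as a block), 25 towards the knockdown and 16 towards the overexpression line, and 885 genes had an unadjusted p under 0.05. PLAT, tissue plasminogen activator, was at 370.5 and 679.9 CPM in the knockdown and 32.6 and 23.1 CPM in the overexpression courses at 1440 min, and at 25.4 and 23.9 CPM in the knockdown and 8.18 and 9.83 CPM in the overexpression courses in the first 45 min. Its line difference was 4.23 at 1440 min and 1.45 early, and the change between them was 2.72 (SE 0.24, adjusted p of 2.0e-10).

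ANGPTL4, a secreted inhibitor of lipoprotein lipase named after its value was seen, had the largest change, 5.51 (SE 1.14), at 2.62 and 6.70 CPM in the knockdown and 0.0594 and 0 CPM in the overexpression courses at 1440 min. It was at under 8 CPM throughout. TXNIP, an arrestin that binds thioredoxin, changed by 2.27 from an early difference of 2.54. TGFA, a ligand of the EGF receptor, and PDK1, a kinase that inhibits pyruvate dehydrogenase, differed by -0.14 and 0.07 early, neither called, and changed by 2.07 and 1.69. CENPE, a kinetochore motor, changed by 1.62. It was at 48.0 CPM in overexpression course 1 and 15.7 CPM in course 2 at 1440 min, so that these courses were far apart.

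In the mitosis list the change was above 0 in all 42 genes, against 6395 of 12506 genes tested, with a median of 0.59, and 6 genes were called. Among these, MKI67, the Ki-67 antigen, was at 261.5 and 271.7 CPM in the knockdown and 366.9 and 362.6 CPM in the overexpression courses at 1440 min. Early it was at 129.5 and 143.6 CPM in the knockdown and 297.9 and 356.1 CPM in the overexpression courses. CDK1, PLK1, AURKB and SPC25 changed by 0.85, 0.84, 0.86 and 1.08. The line difference was nearer 0 at 1440 min in these 5 genes, and that of CENPE, the sixth, was 0.67, which was not called.

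In the other direction, CITED2, a transcriptional co-regulator, changed by -1.24 (SE 0.19, adjusted p of 1.0e-04). It was at 192 and 129.9 CPM in the knockdown and 141 and 108 CPM in the overexpression courses at 1440 min, and at 512 and 352 CPM in the knockdown and 152 and 134 CPM in the overexpression courses early. The amino acid transporter gene SLC7A5 changed by -1.29, the mRNA decay factor ZFP36 by -2.28 and DOP1B, of membrane traffic, by -1.24. EGR1 changed by -2.57, and the times in the early course sums bear on this value as they do above. The same holds for ZFP36, whose change over the first 45 min was 1.21 (not called). Its early line difference of 1.115 was 0.93 at 0 min alone, not called, and 0.44 in course 2 at matched times.

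**Figure D5:**
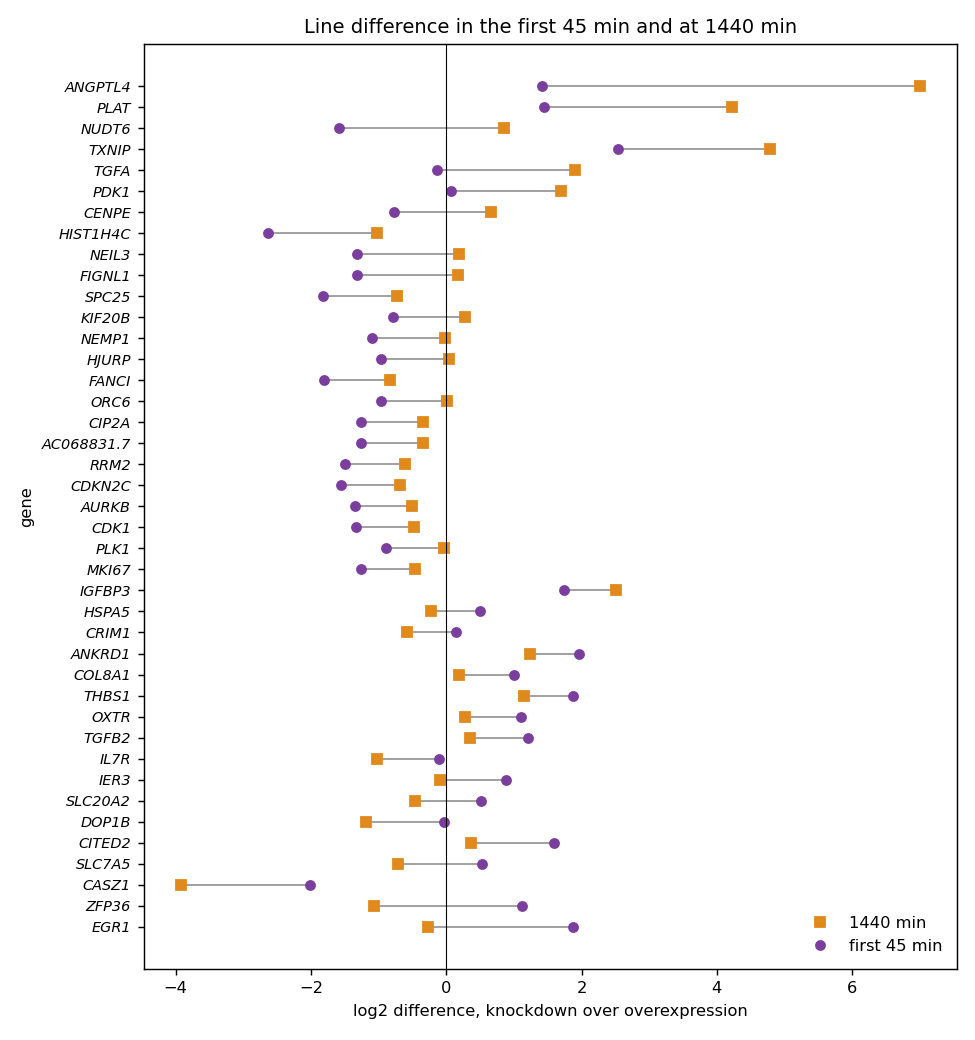
Log2 difference in abundance, knockdown over overexpression, at 1440 min (orange squares) and in the first 45 min (purple circles) for the 41 genes whose difference changed, from the largest positive change at the top to the largest negative at the bottom. PLAT moves to 4.23 at 1440 min, against 1.45 early, and the mitotic genes move towards 0.

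Set against the 4 unlabelled libraries of the same courses, which had no s4U, the line difference changed for 1 of 12513 genes, or 0.00799% (edgeR; 376 at an unadjusted p under 0.05, and DESeq2 called 1 higher and 3 lower). That gene was EGR1 (-3.90, SE 0.63, adjusted p of 0.0064), at 1.45 and 3.00 CPM in the unlabelled knockdown and 5.24 and 9.02 CPM in the unlabelled overexpression libraries. The early course sums of EGR1, at 217 and 95.3 CPM in the knockdown and 12.5 and 72.5 CPM in the overexpression courses, include libraries of 45 min, whereas by the methods the unlabelled libraries were collected with those of 0 min. By list, the change of the line difference was above 0 in 34 of 42 mitosis genes, with a median of 0.46. For licensing it was above 0 in 18 of 23 genes (median 0.48) and for the fork in 16 of 32 (median 0.05). Of all genes tested, 6260 of 12513 were above 0, and no member of these lists was called. The mitosis list shifted in the same direction here as late in the chase. Both changes were taken from the same early course sums, so their directions are not independent. In the unlabelled libraries alone 4 of 11613 genes were called higher and none lower (686 at an unadjusted p under 0.05, edgeR). The unlabelled library of overexpression course 1 was shallower than any early library, with 14712332 reads in 3′ UTRs. Of its reads 13.4% were multimapped, against 8.46% to 11.3% in the early libraries.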

How the data were processed

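The authors' processing notes name SLAMdunk 0.4.3 and hg38, and the deposited tables give raw read counts, multimapped read counts, covered T counts and T>C conversion counts for each of 71668 3′ UTR intervals. Here the counts were summed by gene symbol, and 1168 intervals that name several genes were left out, which gave 19041 genes. Of the 34 libraries 20 were used and 14 were not analysed here. Counts of the early libraries were summed per course and compared between the lines with edgeR 4.0.16 (R 4.3.3, TMM, filterByExpr, quasi-likelihood test). The change over 45 min used single libraries and the difference tests used course sums and the libraries of 1440 min or without s4U, each with the course as a block. Adjustment followed Benjamini and Hochberg across every gene in a fit. DESeq2 1.42.0 and limma 3.58.1 (voom) served as alternatives. TMM factors were 0.983 to 1.01. Reads carry no molecular identifiers. Deviations of same-numbered courses from their line means correlated between the lines at r of 0.05 over 12572 genes.

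Named genes were CCND1, the 10 highest and 10 lowest called differences at 10 CPM or more without overlap of libraries, the 3 largest called differences of each of 35 lists, the 8 highest and 5 lowest changes over 45 min and the 5 highest and 5 lowest changes of the line difference, both at 10 CPM or more. The lists, the libraries and these rules were chosen with earlier results of these data known. Other members named beside the counts were chosen after their values were seen. Of the list symbols 1022 were matched and 14 were not, and for some an older symbol was used (CYR61, NOV). Values of some list members are not reported here.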

Additional observations from a re-analysis of the deposited data

Results flagged for a closer look

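Single libraries far from the other 5 of their line were looked for in 64 sets of values with Dixon's test, which flags about 5% of sets by chance, and 7 were found. SELPLG was at 22.7 CPM in knockdown course 2 at 20 min, above 12.4 to 15.3 CPM in the other 5. HIST1H4C was at 582 CPM in overexpression course 1 at 20 min, above 86.4 to 246 CPM in the others, and ELOVL2 at 24.5 CPM in overexpression course 1 at 0 min, above 15.1 to 18.4 CPM. The other 4 were in overexpression course 2 at 45 min, the only overexpression library of that time: EGR1 at 228 CPM, IER2 at 464 CPM, JUNB at 104 CPM and HBEGF at 151 CPM.

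The line difference itself changed between the first 45 min and 1440 min, by the interaction test of edgeR, for PLAT (2.72), TXNIP (2.27), TGFA (2.07), PDK1 (1.69) and CENPE (1.62) towards the knockdown line and for EGR1 (-2.57), ZFP36 (-2.28), SLC7A5 (-1.29), CITED2 (-1.24) and DOP1B (-1.24) towards the overexpression line. Between the first 45 min and the unlabelled libraries it changed for EGR1 (-3.90). The times in the early course sums bear on the values of EGR1 and ZFP36, as above.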

How the results depend on the processing

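The line difference gave 1526 genes higher and 1470 lower. At 0 min alone it gave 946 and 924. Leaving out single courses or libraries gave 645 to 1539 higher and 698 to 1479 lower. The lowest counts came without overexpression course 1 at 0 min, when that course rested on the 20 min library that stood apart, and 920 and 928 came without overexpression replicate 1. With the replicate number as a block the counts were 1743 and 1709, and with the block on 12 libraries 2186 and 2186. EGR1 turned to -0.41 with 12 libraries as samples, -0.40 with these and a replicate block, -1.46 at 0 min alone and -0.43 in replicate 2 at matched times. The median of the pigment epithelium list turned to 0.21 and that of the histones to -0.081 at 1 CPM or more in every library. For the change over 45 min, 10 genes rose and none fell. There were 16 and 1 with DESeq2, 22 higher without a filter, 20 for 45 min against 0 min, 24 without both libraries that stood apart, a choice made after seeing the data, and 4 to 23 without single courses, with 4 without knockdown replicate 2 and 23 without overexpression replicate 1. For the difference of these changes, no gene was called, against 1 higher without a filter, 18 higher and 2 lower for 45 min against 0 min, and 0 to 188 higher and 0 to 76 lower without single courses, the most without overexpression replicate 2. For 1440 min, 25 and 16 became 41 and 28 with DESeq2, 50 and 33 without a filter, 10 and 3 with the replicate block, and 7 to 83 and 3 to 77 without single courses, with 7 higher without knockdown replicate 2, 3 lower without overexpression replicate 1, and 83 and 77 without overexpression replicate 2. For the unlabelled libraries, 0 and 1 became 1 and 3 with DESeq2, 0 lower with the replicate block, and 0 to 35 and 0 to 123 without single courses, the most without knockdown replicate 2, with 29 and 8 without overexpression replicate 2. The causes were not tested.

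With 2 courses a line, of which 1 has 2 libraries, precision rests on few samples, and the early libraries do not share the same times across courses. Of the named genes, ITGB8 lost its call in 18 of 28 alternatives, ISG15 in 13, PKM in 12, CSF2 in 12 of 27 and SNAI1 in 11.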

Other observations

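For EGR1 reads, at 45 min 0.732% and 0.603% of covered T bases were converted in the knockdown courses and 0.708% in overexpression course 2, on 233404 to 491359 covered T bases. The 20 min libraries had 0.922% in knockdown course 2 and 0.481% and 0.81% in the overexpression courses, and the 10 min libraries 0.0152% and 1.19% in course 2 of the knockdown and of the overexpression line. At 0 min both knockdown courses were at 0.0758% or less (0.026% in course 1), and overexpression courses 1 and 2 were at 0.236% and 0.0169%, on 2640 to 9341 covered T bases. No conversion was counted in the 4 unlabelled libraries, on 687 to 8156 covered T bases. Over all genes the early libraries had 0.775% to 0.891% in the knockdown and 0.892% to 0.963% in the overexpression line.

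By chromosome, 121 of 687 genes tested on chromosome 12 were higher in the knockdown line (17.6%, against 12.1% of all genes) and 64 were lower. On chromosome 13, 13 of 210 were higher and 37 lower (17.6%, against 11.7% of all genes). The median differences of these chromosomes were 0.12 and -0.15. They had the highest shares in each direction among 23 chromosomes, and the next were chromosome 5 with 15.9% higher (94 of 592) and chromosome 21 with 17.5% lower (21 of 120).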
